A study of Mus musculus with 6 samples.

Results

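C-type lectin receptors are membrane or secreted proteins that share a fold first described as a calcium-dependent sugar-binding domain. They were examined here in bone marrow-derived macrophages (BMDMs), cells grown from mouse marrow, after co-culture with ID8, an ovarian cancer line from the mouse. The members were the protein-coding genes of the expression table with a Clec symbol, together with the mannose receptor family (Mrc1, Mrc2, Ly75), Mgl2, Cd209b to Cd209g, Cd207 and Colec12. This gave 42 genes of the 54532 listed, of which 22046 are protein-coding. Before co-culture the ID8 cells received cisplatin, the DNA-crosslinking drug, at 40 µM (3 libraries) or phosphate-buffered saline, PBS (3 libraries), so that the BMDMs of both groups had met tumour cells. The marrow cells came from young adult C57BL/6 mice, whose sex is not given in the sources used here. The labels call the cells BMDM and the source a co-culture, while the study's methods describe marrow monocytes collected after co-culture, and how ID8 cells were kept out is not given in the sources used here. The study's methods speak of biological replicates in general, but neither they nor the labels say whether the libraries of a group came from separate mice or cultures, so p-values measure the spread between these libraries, which may be technical.

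Myeloid cells carry several kinds of these receptors. Endocytic receptors such as Mrc1 take up glycoproteins, activating receptors such as Dectin-2 and Mincle signal through the adaptor Fcer1g to the kinase Syk and the scaffold Card9, and inhibitory receptors such as DCIR recruit phosphatases through an ITIM, a tyrosine motif in the cytoplasmic tail. Other members are ligands of natural killer cell receptors or secreted proteins. Many of the genes lie side by side on chromosome 6, which holds 23 of the 42.

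Most of the C-type lectin signal came from a few genes, and it was higher where the ID8 cells had been pretreated with cisplatin. Levels are given in FPKM, a read count divided by gene length and by a scaling total per library, which can be compared between genes. That total was 104% of the recovered reads in each cisplatin library and 97.4% to 98.7% in the PBS libraries. Summed over the 42 genes, the level was 1078 ± 30.8 FPKM (mean ± SD, n = 3) with cisplatin and 366 ± 12.1 FPKM with PBS. The libraries ranged from 1048 to 1110 FPKM and from 357 to 380 FPKM, with no overlap. Clec4n, Clec4d, Clec4a1 and Clec4e together held 81.9% to 82.3% of that sum with cisplatin and 74.4% to 74.9% with PBS.

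Of the 42 genes, 15 reached 1 FPKM in at least 3 of the 6 libraries and entered the test, 22 lay under this filter with a value above 0 and 5 were listed at 0 throughout. The test was limma on log2(FPKM + 1) over 13441 genes, and calls of upregulated or downregulated genes required both an adjusted p (Benjamini-Hochberg) below 0.05 and at least 1 unit of log2 change. Log2 changes compare cisplatin with PBS on this scale, which understates the change of low genes. Clec4n, Clec4d, Clec5a, Clec4a2, Clec4a1, Clec12a, Mrc1, Clec4b2 and Clec10a were upregulated, 9 genes in all. By limma 0 were downregulated, while 2, Ly75 and Clec16a, were lower at an unadjusted p under 0.05, and limma voom on the recovered reads of the same tested genes also called 0 of the 15 lower. Over all tested genes 4.67% were called higher and 11.3% lower.

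Mrc1, Clec4b2 and Clec10a passed the filter through the cisplatin libraries, with at most 1 PBS library at 1 FPKM, so that the filter favoured a difference in them. Among the other 12 genes, which passed it within each group, 6 were upregulated. The median log2 fold change of these 12 was 0.99, beside -0.0011 over all tested genes. At an adjusted p under 0.05 alone, 10 of these 12 were higher and Ly75 was lower, where 32.9% of all tested genes were higher and 35.1% lower. In 10 of the 12 all cisplatin libraries lay above all PBS libraries, and in Ly75 and Clec16a all lay below. Such separation was frequent in these data, with 35.2% of tested genes above and 37.2% below.

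**Figure D1:**
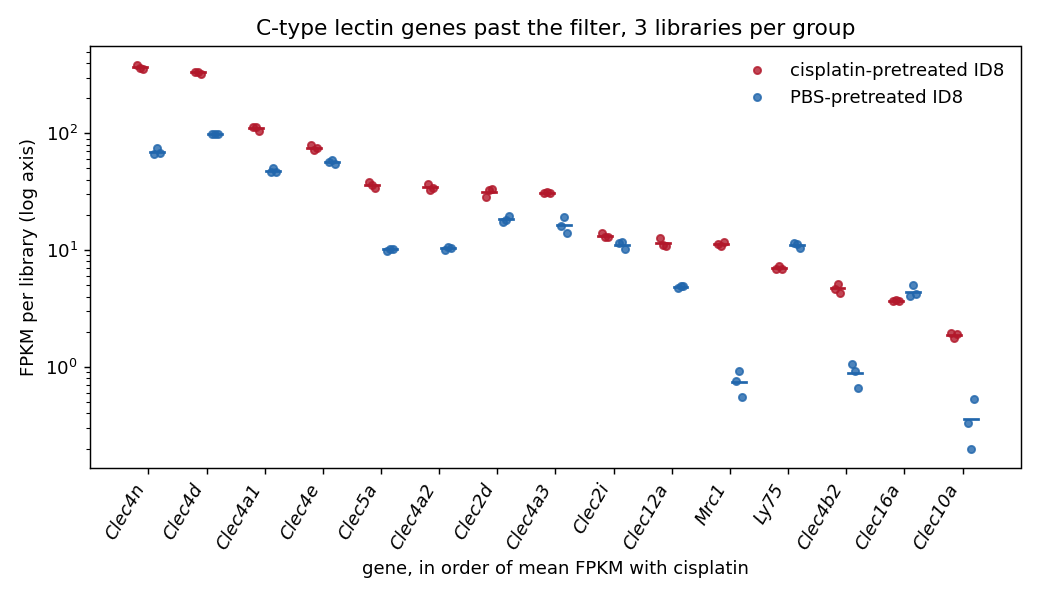
FPKM on a log axis for the 15 C-type lectin genes past the filter, in order of their mean with cisplatin; points are the 3 libraries of each group and lines their means. The groups do not overlap in any of the 15 genes, and Ly75 and Clec16a are the ones with the PBS libraries on top.

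The content of the libraries moved with the groups as well. The recovered reads, obtained from FPKM and gene length, numbered 15776238 to 16396353 per library with cisplatin and 15907567 to 17924686 with PBS, so that depth was similar. The label BMDM was checked against 12 macrophage markers, and every one of them was above 1 FPKM in some library. Their summed level was 4239 to 4397 FPKM with cisplatin and 1648 to 1659 FPKM with PBS, or, without the lysozyme gene Lyz2, named after its values were seen, 832 to 846 FPKM and 486 to 500.5 FPKM. Of these markers 6 of the 12 were called higher and 0 lower (12 higher by adjusted p alone, median log2 fold change 1.002, or 0.19 with 1 higher under the scaling described next). Of 18 markers of ID8 and mesothelial cells none was at 0, 12 were tested, 1 was higher and 9 were lower, with a median of -2.13 (-3.10 and 1 higher and 10 lower with the scaling described next). Their summed level was 1175 to 1200 FPKM against 1487 to 1577 FPKM. Most of the cisplatin sum was Thbs1, the called gene that was higher (930 ± 4.95 against 136 ± 4.43 FPKM, named after its values were seen), and the other 17 summed to 249 to 270 FPKM against 1346 to 1444 FPKM. The 3 largest changes were those of Krt19 (-3.50), a keratin, Gpm6a (-3.20) and Wt1 (-3.14). The 4 Y-linked genes, which ID8 cells from ovarian epithelium lack, summed to 41.6 to 42.8 FPKM with cisplatin and 19.5 to 22.7 FPKM with PBS, and their median log2 fold change was 0.70 (range 0.55 to 1.15). Markers of other blood cells were present too. Those of neutrophils and granulocyte precursors summed to 9117 to 9382 FPKM with cisplatin and 4826 to 4993 FPKM with PBS. Those of B cells summed to 501 to 507 and 235 to 243 FPKM. BMDM is thus used as the label's name, and not to say that macrophages were the only marrow cells. In such bulk RNA, a different share of macrophages or other cells and a different amount of receptor RNA per cell cannot be told apart. The fold change of each tested member, and the calls and median of each list, are therefore also given with the libraries scaled by these 4 Y-linked genes, a choice made with earlier results of these data known. This scaling assumes that male cells made up the same share of the marrow cells in both groups. That was not tested, since the sex of the mice is not given in the sources used here. With this scaling the all-gene median was -0.83, and 0.632% of them were then called higher and 38.5% lower.

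Mrc1 and Clec4n were the genes that stayed upregulated under the Y-linked scaling, which left 2 of the 9. The others of the 9 kept positive values at an adjusted p under 0.05 by limma but missed the fold change threshold. They ran from 0.21 (Clec4a1, adjusted p = 0.00634) to 0.95 (Clec4b2, adjusted p = 0.000101), with the largest adjusted p at 0.0204 (Clec12a). Among the 12 genes that passed the filter within each group, 1 was then upregulated and 1 downregulated, and their median went from 0.99 to 0.072. Clec4a3, Clec2d, Clec4e and Clec2i turned from positive to negative, and Ly75 became downregulated. Of those that turned, Clec4e and Clec2i were lower at an adjusted p under 0.05 by limma. Clec4a3 (adjusted p = 0.447) and Clec2d (adjusted p = 0.0939) were not. The part of cell content in these differences was not tested.

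**Figure D2:**
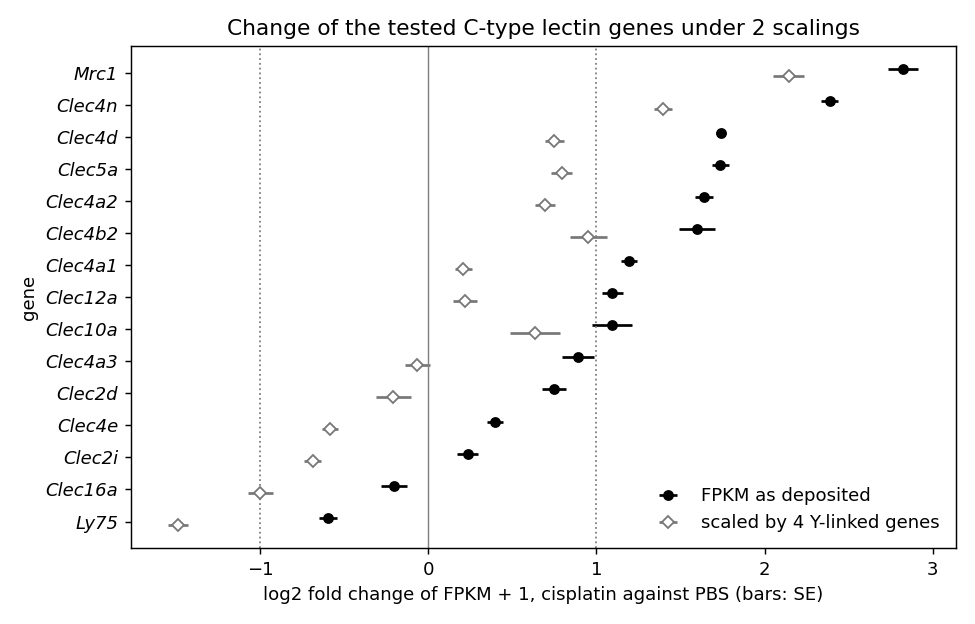
Log2 fold change of FPKM + 1 (x axis, cisplatin against PBS, bars SE from limma) for the 15 tested genes, with FPKM as deposited in black and scaled by the 4 Y-linked genes in white; dotted lines mark a log2 fold change of 1 in size. Mrc1 (2.82 and 2.14) and Clec4n (2.39 and 1.40) lie beyond the upper line on both scales.

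Before the members are described one by one, the promoters of a few whose fold changes differ are shown. The mouse RefSeq table (GRCm38.p6, 250 bases before to 50 bases after the start) held 34 of the 42 genes used here, among them 13 of the 15 tested; Clec4n and Clec10a are among those not matched. GAGGAA, the core that the myeloid factor PU.1 is known to bind, is in capitals, and TTCCTC is the same letters on the other strand. Mrc1 had the largest fold change, Clec4d and Clec4e are adjacent genes with unlike fold changes, and Ly75 had a negative one.
Mrc1 promoter, chr2:14229164-14229463, plus strand: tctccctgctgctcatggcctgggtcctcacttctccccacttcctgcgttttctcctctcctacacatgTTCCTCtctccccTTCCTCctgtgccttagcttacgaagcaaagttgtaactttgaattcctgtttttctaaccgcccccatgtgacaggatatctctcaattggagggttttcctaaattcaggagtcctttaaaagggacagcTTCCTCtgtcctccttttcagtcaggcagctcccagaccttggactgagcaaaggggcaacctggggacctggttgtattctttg
Clec4d promoter, chr6:123261857-123262156, plus strand: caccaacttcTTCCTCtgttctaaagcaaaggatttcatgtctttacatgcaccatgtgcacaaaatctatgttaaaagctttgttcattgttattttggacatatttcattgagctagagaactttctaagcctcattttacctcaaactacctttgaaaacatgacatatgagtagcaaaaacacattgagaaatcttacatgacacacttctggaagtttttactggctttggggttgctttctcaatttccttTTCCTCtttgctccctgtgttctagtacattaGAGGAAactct
Clec4e promoter, chr6:123289822-123290121, minus strand: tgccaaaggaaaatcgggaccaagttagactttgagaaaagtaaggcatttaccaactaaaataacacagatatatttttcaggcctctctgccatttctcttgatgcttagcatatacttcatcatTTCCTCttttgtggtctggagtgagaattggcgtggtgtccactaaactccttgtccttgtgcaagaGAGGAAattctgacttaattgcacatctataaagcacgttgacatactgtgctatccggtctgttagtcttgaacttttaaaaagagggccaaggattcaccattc
Ly75 promoter, chr2:60383224-60383523, minus strand: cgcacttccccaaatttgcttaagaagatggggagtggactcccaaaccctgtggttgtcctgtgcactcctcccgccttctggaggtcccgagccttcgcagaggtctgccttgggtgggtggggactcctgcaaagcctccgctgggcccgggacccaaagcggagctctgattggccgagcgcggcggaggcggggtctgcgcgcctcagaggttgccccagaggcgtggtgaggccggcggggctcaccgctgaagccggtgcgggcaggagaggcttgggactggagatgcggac
The Mrc1 window held 3 matches, whose first bases lie at -180, -167 and -35 from the start, the Clec4d window held 3 and the Clec4e window 2. The Ly75 window held 0. GAGGAA was present on either strand in 28.3% of all 32851 promoters, in 17 of the 34 member promoters and in 8 of the 13 of tested members (Mrc1, Clec5a, Clec4a1, Clec4b2, Clec4d, Clec4e, Clec12a and Clec16a). TTC and GAA with 4 bases between, the spacing that STAT6 is known to bind, was present in 6.95% of all promoters and in Clec5a, Clec4a1 and Clec4b2 among the tested members. A pair of GAAA with 2 bases between, as interferon regulatory factors bind, was present in 3.44% of all promoters and in Clec4d and Clec2d. Bases could count for more than 1 of these motifs. A match is a run of letters and no evidence that a factor was bound. Clec16a, which did not pass the test, and Clec4e, with less than a 2-fold change, each held 2 matches.

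Among the endocytic receptors of the mannose receptor family, Mrc1 and Ly75 went in opposite directions. Mrc1 (CD206, ENSMUSG00000026712, chr2:14229392-14332057 on GRCm38), which binds mannose and sulphated sugars, was at 11.4, 10.8 and 11.7 FPKM with cisplatin and 0.754, 0.917 and 0.557 FPKM with PBS. Every cisplatin library was more than 10 times above every PBS library. The means of 11.3 ± 0.443 and 0.743 ± 0.180 FPKM stand in a ratio of 15.2, and the log2 change was 2.82 (SE 0.089, adjusted p = 4.61e-07). This was the 8th largest rise of all tested genes on log2(FPKM + 1), and the rank was not taken on other scales. With the Y-linked scaling the log2 change of FPKM + 1 was 2.14 in place of 2.82. On recovered reads (3594 against 231, over 3 libraries each), without that scaling, the log2 fold change was 4.03. The one gene annotated within Mrc1 on its strand, Mir511, is listed at 0.

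Ly75 (DEC-205), the uptake receptor best known from dendritic cells and thymic epithelium, was at 6.90, 7.28 and 6.82 FPKM with cisplatin and 11.6, 11.2 and 10.5 FPKM with PBS. The cisplatin libraries were all lower, with a log2 change of -0.60 (SE 0.054, adjusted p = 6.85e-05), which misses the fold change threshold. The fold change was -1.49 with the Y-linked scaling, past the threshold. Its antisense neighbour Gm13571 was at 0.233 and 0.584 FPKM. Ly75 therefore stood above Mrc1 with PBS and below it with cisplatin. Mrc2 (Endo180), a collagen uptake receptor of mesenchymal cells, stayed under the filter, with 9, 13 and 18 reads against 75, 63 and 81 reads.

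The galactose-type receptors were low in both groups and higher with cisplatin. Clec10a, which binds galactose and N-acetylgalactosamine, was at 1.95, 1.76 and 1.90 FPKM with cisplatin and 0.331, 0.199 and 0.534 FPKM with PBS. The groups did not overlap, and the log2 change was 1.09 (SE 0.12, adjusted p = 0.000182), or 0.64 with the Y-linked scaling. Its neighbour on chromosome 11 and close relative Mgl2 had 35, 47 and 45 reads against 10, 8 and 4. The DC-SIGN type genes, which bind mannose and fucose, had few reads. In all 6 libraries together Cd209b had 10 reads, Cd209c 9, Cd209d 6, Cd209f 7 and Cd209g 2, and Cd209e was listed at 0. Langerin (Cd207), the Langerhans cell receptor, was also listed at 0, and Clec4f, the Kupffer cell receptor, had 2 reads.

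The 9 genes of the Dectin-2 and DCIR stretch on chromosome 6 lie within 368 kb, from chr6:122921848 to 123289870, and 7 of them were tested. Clec4n, Clec4d, Clec4a1, Clec4a2 and Clec4b2 were upregulated and none was downregulated, where 4.67% of all tested genes were called higher. All 7 were higher by adjusted p alone, as were 32.9% of all tested genes. Clec4b2 is the one of the 7 that passed the filter through the cisplatin libraries, which favoured a difference in it. With the Y-linked scaling 1 of the 7 (Clec4n) was upregulated, and Clec4a3 and Clec4e had negative values. The genes are related in sequence, and how reads that match several of them were counted is not given in the sources used here, so values of Clec4a1 to Clec4a4, Clec4b1 and Clec4b2 are uncertain in their split.

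The activating receptors at the far end of the stretch include Clec4n and Clec4d, the 2 most abundant members in both groups. Clec4n (Dectin-2, ENSMUSG00000023349, chr6:123229843-123247021), which binds fungal mannans and signals through Fcer1g, was at 383, 366 and 357 FPKM with cisplatin and 66.9, 74.4 and 67.8 FPKM with PBS. All cisplatin libraries were far above the PBS libraries, and the log2 change was 2.39 (SE 0.051, adjusted p = 1.05e-07), or 1.40 with the Y-linked scaling. Clec4d (MCL), which pairs with Dectin-2 or Mincle, was at 336, 336 and 322 FPKM against 98.3, 98.5 and 98.4 FPKM. Its PBS libraries lay within 1 FPKM of each other, and the log2 change was 1.74 (SE 0.031, adjusted p = 6.94e-08), or 0.75 with the Y-linked scaling. Clec4e (Mincle), the receptor for mycobacterial cord factor and for a protein released by dying cells, was at 79.2, 72.5 and 74.3 FPKM against 56.4, 59.6 and 54.8 FPKM. The groups did not overlap, yet the log2 change of 0.40 (SE 0.048, adjusted p = 0.000305) missed the threshold and was -0.59 with the Y-linked scaling. Clec4d and Clec4e are neighbours. The difference between their fold changes was not itself tested.

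Of the DCIR group and its relatives, towards the other end, Clec4a2, Clec4a1 and Clec4b2 were upregulated, though none of them with the Y-linked scaling. Clec4a2 (DCIR), the inhibitory receptor with an ITIM, was at 36.6, 32.8 and 33.9 FPKM with cisplatin and 10.02, 10.7 and 10.4 FPKM with PBS. The cisplatin libraries were all above the PBS libraries, with a log2 change of 1.64 (SE 0.052, adjusted p = 4.93e-07), or 0.69 with the Y-linked scaling. Clec4a1 (DCIR4) was at 114, 112 and 105 FPKM against 46.7, 50.03 and 46.6 FPKM. Its groups were also apart, with a log2 change of 1.19 (SE 0.046, adjusted p = 1.15e-06), or 0.21 with the Y-linked scaling. Clec4a3 (DCIR3) was at 30.6, 31.3 and 30.9 FPKM against 16.0, 19.0 and 14.1 FPKM. It was higher in every cisplatin library, but its log2 change of 0.89 (SE 0.097, adjusted p = 0.000174) missed the threshold, and it was -0.065 with the Y-linked scaling. Clec4b2, an activating relative, was at 4.66, 5.14 and 4.28 FPKM against 1.06, 0.930 and 0.659 FPKM. It rose by 1.60 (SE 0.11, adjusted p = 1.52e-05), or 0.95 with the Y-linked scaling, and the snRNA gene Gm22946 overlaps it on the other strand at 0.956 and 0.720 FPKM. Clec4a4 (DCIR2), a dendritic cell receptor, was at 2.73 FPKM in cisplatin replicate 1 but at 0.549 and 0.780 FPKM in the other cisplatin libraries, close to the 0.583, 0.414 and 0.582 FPKM with PBS. Clec4b1 (DCAR) had 3, 5 and 7 reads against 1, 1 and 0.

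**Figure D3:**
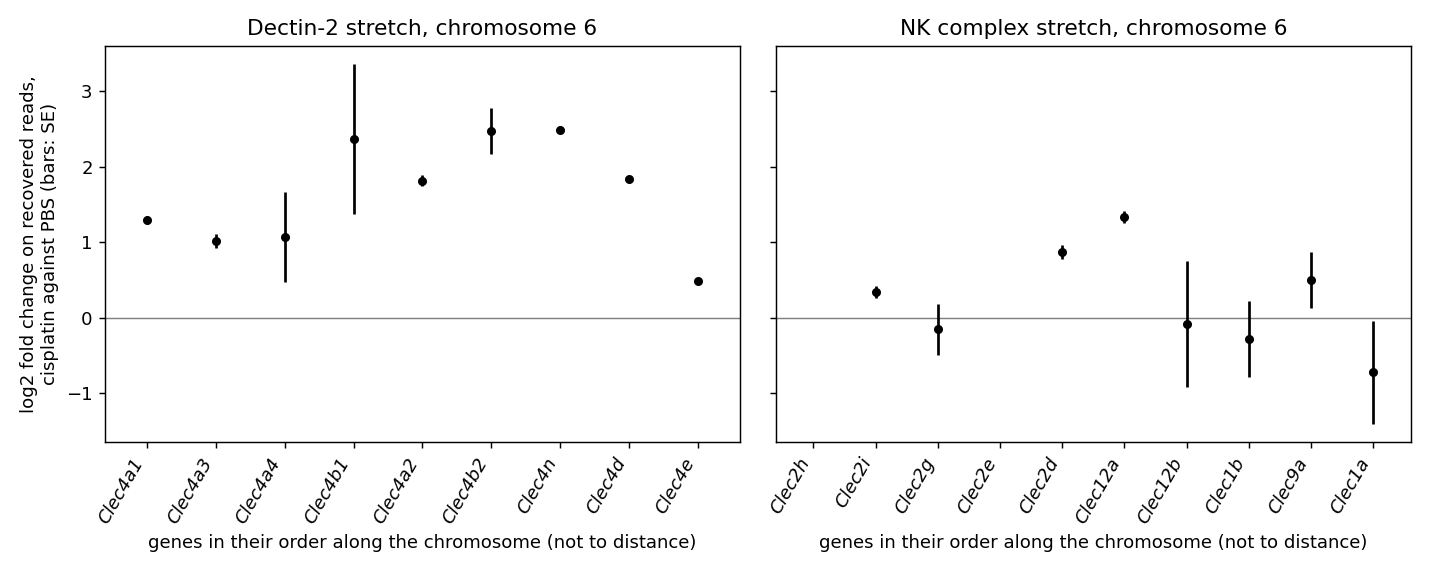
Log2 fold change on recovered reads (y axis, cisplatin against PBS, bars SE from limma voom) for the C-type lectin genes of each stretch of chromosome 6, in chromosomal order; Clec2h and Clec2e had too few reads. All 9 genes of the Dectin-2 stretch have positive values, from 0.49 for Clec4e to 2.49 for Clec4n, and those of the natural killer complex lie on both sides of 0. Of the 9, Clec4a4 did not pass (adjusted p = 0.138) and Clec4b1 rests on 15 reads against 2. With the Y-linked scaling of FPKM, which is not drawn here, Clec4a3 and Clec4e had negative values.

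Clec5a and Clec12a, an activating and an inhibitory receptor of myeloid cells, were both upregulated. Clec5a (MDL-1), which signals through the adaptor Tyrobp (DAP12) and lies apart on chromosome 6, was at 38.4, 36.4 and 34.0 FPKM with cisplatin and 9.92, 10.3 and 10.3 FPKM with PBS. Its groups were far apart, with a log2 change of 1.74 (SE 0.052, adjusted p = 3.76e-07), or 0.79 with the Y-linked scaling. Clec12a (MICL), the ITIM receptor for uric acid crystals, was at 12.6, 11.05 and 10.9 FPKM against 4.70, 4.92 and 4.92 FPKM. It too was higher in all cisplatin libraries, by 1.09 (SE 0.064, adjusted p = 7.94e-06), or 0.22 with the Y-linked scaling. Dectin-1 (Clec7a), the beta-glucan receptor, is annotated as a polymorphic pseudogene in the table and so is no member, but it was at 21.7 ± 0.899 against 5.50 ± 0.404 FPKM, with a log2 change of 1.80 (SE 0.061, adjusted p = 6.04e-07), or 0.90 with the Y-linked scaling. Near Clec12a, in the part of the natural killer complex that holds Dectin-1 and its relatives, the members Clec12b, Clec1b (the platelet receptor for podoplanin), Clec9a (the receptor of cross-presenting dendritic cells for dead cells) and Clec1a stayed under 1 FPKM in every library. Their reads overlapped between the groups, with 17, 40 and 28 against 17, 19 and 23 for Clec9a, whose locus overlaps that of Clec1b.

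The Clec2 genes encode ligands of NKR-P1 receptors on natural killer cells, and limma called 0 of the 2 tested, both of which were higher by adjusted p alone. Clec2d (Clr-b), which inhibits natural killer cells, was at 28.5, 32.5 and 33.6 FPKM with cisplatin and 17.3, 18.2 and 19.5 FPKM with PBS. The groups were apart, with a log2 change of 0.75 (SE 0.072, adjusted p = 9.49e-05), but the value was -0.21 with the Y-linked scaling. Clec2i (Clr-g) was at 14.0, 12.9 and 12.9 FPKM against 11.4, 11.8 and 10.2 FPKM. Its log2 change was 0.23 (SE 0.064, adjusted p = 0.0149), or -0.69 with the Y-linked scaling. Clec2i overlaps the gene BC035044 on the opposite strand, which was at 24.3 ± 1.68 and 8.70 ± 0.544 FPKM, and whether counting used strand is not given in the sources used here, so their reads may not be separable. Clec2g had 196 reads, was lower by limma voom on reads with the Y-linked scaling alone (-1.25, adjusted p = 0.00118), and likewise overlaps an antisense gene, Gm15987, at 6.30 and 5.05 FPKM. Clec2l had 21 reads, Clec2h 6 and Clec2e 5, over the 6 libraries. The 5 NKR-P1 receptor genes were under the filter, and 4 of them stayed under 1 FPKM in every library.

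Clec16a, which despite its name acts inside the cell in mitophagy and endosome traffic, did not pass the test. It was at 3.70, 3.72 and 3.65 FPKM with cisplatin and 4.05, 5.02 and 4.17 FPKM with PBS, a log2 change of -0.20 (SE 0.080, adjusted p = 0.0570) that was -0.999 with the Y-linked scaling. Among secreted and scavenger members, Clec3b (tetranectin) had 1, 4 and 1 reads against 24, 7 and 11, Clec11a, a growth factor for blood and bone cells, had 30 reads in all, and Colec12, an endothelial scavenger receptor, had 16, 17 and 18 reads against 4, 2 and 7. Clec4g, the sinusoidal endothelial receptor, had 9, 5 and 2 reads against 0, 3 and 0. Clec3a, Clec14a and Clec18a were listed at 0.

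The members under the filter were also examined on reads, by limma voom over 22419 genes with at least 10 reads in all, a choice made once these data had been examined. Of these genes 9.78% were called higher and 12.2% lower. Among the 15 such members, 4 were higher and 2 lower, and 12 further members had fewer than 10 reads. The minimum of 10 reads is on the total of both groups. It favoured a difference in called members that reached it through the group where they are high. These were Cd209b (10 reads with cisplatin against 0 with PBS), Clec4b1 (15 against 2) and Clec3b (6 against 42). Mgl2 was higher by 2.56 (SE 0.45, adjusted p = 2.70e-05, or 1.45 with the Y-linked scaling) and Colec12 by 2.05 (SE 0.58, adjusted p = 0.00409), the latter at 0.99 and an adjusted p of 0.147 on reads with the Y-linked scaling. Mrc2 was lower at -2.41 (SE 0.35, adjusted p = 1.42e-06, or -3.49 with the Y-linked scaling) and Clec3b at -2.55 (SE 0.80, adjusted p = 0.00920, or -3.64 with the Y-linked scaling), with all 3 cisplatin libraries below the PBS libraries in both. The other 2 calls rest on few reads. Clec4b1, with 15 reads against 2, had a ratio of 7.78 per recovered read (95% exact interval 1.81 to 70.1, counting error only) and an adjusted p of 0.0496. That call was lost without any 1 of cisplatin replicate 2, cisplatin replicate 3 or the PBS libraries (adjusted p from 0.0845 to 0.155) and with the replicate number as a block (adjusted p = 0.0557). Cd209b, with 10 reads (6, 2 and 2) against 0 in every PBS library, had an adjusted p of 0.0293. Its ratio per recovered read was 3.46 when 3 reads are taken as the limit that a count of 0 over the PBS libraries allows. That ratio leaves out the counting error of the 10 reads and is no lower bound. The call of Cd209b was lost without cisplatin replicate 1 or without any 1 PBS library (adjusted p from 0.0856 to 0.118), and with the Y-linked scaling both calls were lost. Clec4a4 did not pass (1.07, SE 0.59, adjusted p = 0.138), but it did without cisplatin replicate 2 (1.52, adjusted p = 0.0402) and with the block (1.38, adjusted p = 0.0319). Without cisplatin replicate 1, its one high library, it was at 0.39 (adjusted p = 0.618), and with the Y-linked scaling at 0.0095 (adjusted p = 0.990). Clec4g passed without cisplatin replicate 3 (adjusted p = 0.0253) or PBS replicate 2 (adjusted p = 0.0394), in both cases as higher, and Clec1a passed as lower without PBS replicate 1 (-1.52, adjusted p = 0.0355). With the Y-linked scaling on reads, 1.4% of these genes were called higher and 40.5% lower. By it Clec2g (-1.25, adjusted p = 0.00118), Clec1b (-1.37, adjusted p = 0.0182) and Clec1a (-1.80, adjusted p = 0.0213) were called lower besides Mrc2 and Clec3b, while Mgl2 was the one still called higher.

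**Figure D4:**
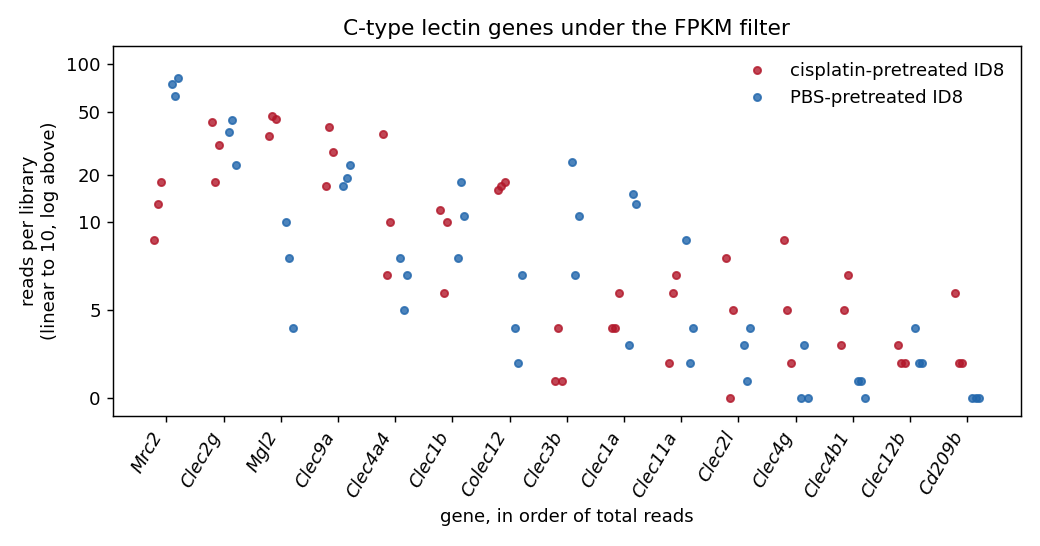
Reads per library (y axis, linear to 10 and logarithmic above) for the 15 C-type lectin genes under the FPKM filter with at least 10 reads in all; each point is a library. Mgl2 and Colec12 are higher and Mrc2 and Clec3b lower in all 3 cisplatin libraries, while Clec2g, Clec9a and Clec1b overlap between the groups.

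The order of the levels also differed between the groups. With cisplatin it ran from Clec4n (369 ± 13.7 FPKM) through Clec4d (332 ± 8.15), Clec4a1 (111 ± 4.69) and Clec4e (75.3 ± 3.47) to Clec10a, and with PBS it ran from Clec4d (98.4 ± 0.0810) through Clec4n (69.7 ± 4.06), Clec4e (56.9 ± 2.44) and Clec4a1 (47.8 ± 1.96). Neighbours at the top were separated in every library. Further down with cisplatin, Clec5a, Clec4a2, Clec2d and Clec4a3 overlapped with their neighbours, as did Clec12a and Mrc1. With PBS, Clec2i, Ly75, Clec4a2 and Clec5a overlapped with their neighbours at means of 10.2 to 11.1 FPKM, as did Clec2d with Clec4a3 and Clec12a with Clec16a. Mrc1 was 11th of 15 with cisplatin and 14th with PBS, where it overlapped with Clec4b2 above it and lay apart from Clec10a below it.

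The 5 tested genes closest to Mrc1 over the 6 libraries, by Euclidean distance on log2(FPKM + 1), were Ednrb (0.343), an endothelin receptor, Tusc1 (0.539), Gm5150 (0.667), Ccl22 (0.731), a chemokine, and Vcan (0.737), a proteoglycan of the matrix. All were higher with cisplatin, by 2.38 to 3.19 on the log2 scale, at 10.1 to 15.3 FPKM with cisplatin and 0.688 to 1.24 FPKM with PBS. This likeness is a description over 6 libraries in 2 groups.

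The signalling genes downstream of the activating receptors were mostly higher by adjusted p alone, few of them past the fold change threshold, and most had negative values with the Y-linked scaling. Of 30 genes from the adaptors to Card9 and NF-kappaB, all tested, 4 were called higher and 1 lower, and 22 were higher and 2 lower by adjusted p alone. Their median log2 fold change was 0.35, and -0.54 with the Y-linked scaling, by which 0 were called higher and 3 lower. The 3 largest changes among the called genes were those of Src (-1.50), a kinase, Btk (1.41), a kinase that activates phospholipase C, and Tyrobp (1.11), the adaptor of Clec5a, which were at -2.35, 0.46 and 0.12 with the Y-linked scaling. Named for their role after their values were seen, Card9 was at 1.06 (adjusted p = 1.51e-05), Syk at 0.62 (adjusted p = 5.66e-06) and Fcer1g, the adaptor of Dectin-2, at 0.09 (adjusted p = 0.126). With the Y-linked scaling they were at 0.12, -0.36 and -0.90. Fcer1g was at 434 ± 10.7 and 407 ± 22.8 FPKM, and its libraries overlapped between the groups. Of the 4 phosphatases that ITIM receptors recruit, 0 were called higher by limma and 1 lower, Inppl1 at -1.92, while 2 were higher and 2 lower by adjusted p alone, with a median of 0.09 (2 lower and a median of -0.89 with the Y-linked scaling).

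**Figure D5:**
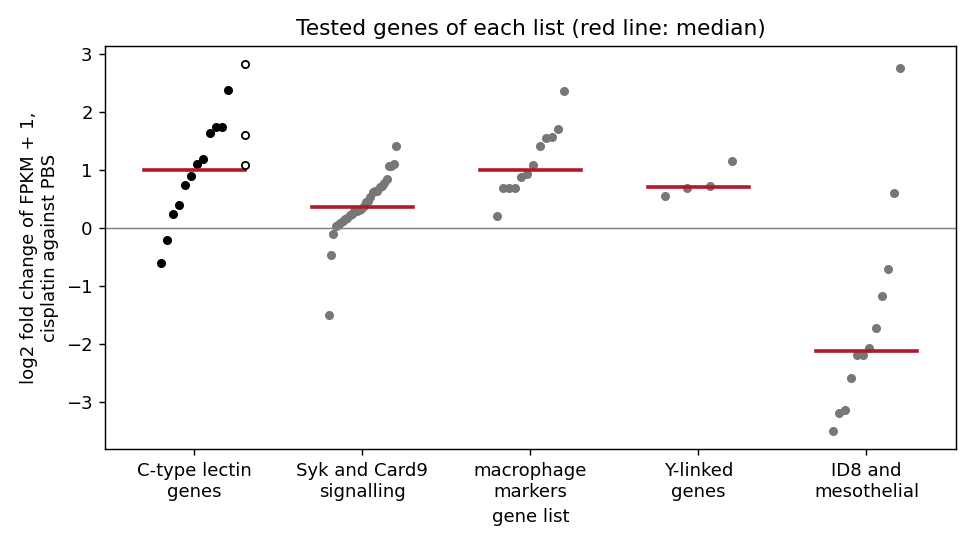
Log2 fold change of FPKM + 1 (y axis, cisplatin against PBS) of the tested genes in 5 lists; points are genes and red lines medians, and white points are Mrc1, Clec4b2 and Clec10a, which passed the filter through the cisplatin libraries and are left out of the median. The other 12 C-type lectin genes (median 0.99) span -0.60 to 2.39, beside medians of 1.002 for the macrophage markers, 0.35 for the Syk and Card9 genes and -2.13 for the ID8 and mesothelial markers.

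Other genes with a C-type lectin domain, 44 in the table and 16 tested, gave 9 called higher and 1 lower, with a median of 1.09 (2 higher, 4 lower and 0.28 with the Y-linked scaling). Vcan (3.19), Cd248 (-2.17), a stromal sialomucin-like receptor, and Cd93 (1.76), a myeloid and endothelial receptor, changed most, and were at 2.49, -2.76 and 0.79 with the Y-linked scaling. Mrc1, Clec10a and Mgl2 are also used as marks of macrophages activated by IL-4, and 24 tested genes of 29 others so used gave 6 higher and 5 lower, with a median of 0.29 (4 higher, 8 lower and -0.35 with the Y-linked scaling). The largest changes were those of Ccl22 (2.55), Cd36 (2.16), a scavenger receptor, and Il13ra1 (-2.12), a receptor chain for IL-13 and IL-4, which were at 1.80, 1.22 and -3.08 with the Y-linked scaling.

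Markers of other cells that carry C-type lectins were examined as well. Of the dendritic cell markers 10 of 12 were tested, with 6 higher and 1 lower (median 1.01, or 1 higher, 2 lower and 0.28 with the Y-linked scaling), and their sum was 67.7 to 71.6 FPKM against 34.7 to 36.2 FPKM. The 12 neutrophil and granulocyte precursor markers gave 8 higher and 0 lower by limma (median 1.72, 11 higher by adjusted p alone, or 3 higher and 0.76 with the Y-linked scaling), with a sum of 9117 to 9382 FPKM against 4826 to 4993 FPKM. Platelet markers, 6 of 10 tested, gave 3 higher and 0 lower (median 0.94, or 2 higher and 0.21 with the Y-linked scaling), with a sum of 260 to 285 FPKM against 30.7 to 35.6 FPKM. Most of that sum was Pf4 and Ppbp, named after their values were seen, and the other 8 summed to 18.6 to 20.4 FPKM against 8.82 to 9.59 FPKM. The 8 B cell markers gave 4 higher (median 0.97, or 0 higher and 0.087 with the Y-linked scaling, sum 501 to 507 FPKM against 235 to 243 FPKM). Kupffer and resident macrophage markers, 5 of 9 tested, gave 1 higher and 1 lower (median 0.40, or -0.52 with 1 higher and 2 lower under the Y-linked scaling, sum 98.7 to 114 FPKM against 35.2 to 42.0 FPKM). Most of that sum with cisplatin was the scavenger receptor Marco (84.2 ± 7.49 against 15.5 ± 2.48 FPKM), and the other 8 summed to 22.1 to 25.5 FPKM against 21.8 to 24.9 FPKM. Endothelial markers, 4 of 10 tested, gave 0 higher and 1 lower (median -0.13, or -0.91 with 2 lower under the Y-linked scaling, sum 22.7 to 23.9 FPKM against 21.9 to 22.5 FPKM). Natural killer and T cell markers, 3 of 12 tested, gave 0 calls by limma (2 higher by adjusted p alone, median 0.40, or -0.27 with the Y-linked scaling, sum 11.8 to 12.5 FPKM against 7.95 to 10.7 FPKM). Among these lists 1 marker, the platelet gene Gp1bb, was at 0 in every library. The part of these cells in the changes of the C-type lectin genes was not tested.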

How the data were processed

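Poly-T selected RNA of 6 libraries was sequenced. Per the labels, the submitters' processing notes name fastp, HISAT2 2.0.5, featureCounts 1.5.0-p3 and mm10, while the study's methods name LifeScope for alignment and counting and DESeq2 for testing, and the strand setting is not given in the sources used here. The authors deposited FPKM per gene, with coordinates, lengths and biotypes, on GRCm38 (mm10).

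The members and all gene lists were chosen with earlier results of these data known. The lists of member types also hold Clec7a, Clec2f and Clec2j, which are annotated as pseudogenes. Genes with at least 1 FPKM in at least 3 of 6 libraries were tested on log2(FPKM + 1) with limma 3.58.1 under R 4.3.3 (lmFit, eBayes with trend, Benjamini-Hochberg over 13441 genes). FPKM multiplied by length gave whole reads for 100% of the values worth fewer than 200 reads (tolerance 0.1 read), and these recovered reads were tested with limma voom as an alternative. Depth was 15776238 to 17924686 reads per library, so counting error is small for abundant members and large for those with few reads, and intervals cover counting error only. Median-of-ratios factors of the deposited FPKM departed from 1 by at most 2.4e-10, so the values are already on that scale and the median change of all genes is near 0 by construction. For the Y-linked scaling, FPKM was divided by a factor from the mean log2 level of 4 Y-linked genes in the library.

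Every member is named. Called members and those with a mean of at least 10 FPKM in a group are given in every library, each list that is no member list with at most its 3 called genes of largest change, and Mrc1 with the 5 tested genes of smallest Euclidean distance. Replicate numbers are shared by the groups, but same-numbered libraries did not deviate together, and the fit has no block. The lists were macrophage, ID8 and mesothelial, Y-linked, dendritic cell, neutrophil, platelet, endothelial, natural killer and T cell, B cell and Kupffer cell markers, Syk and Card9 signalling genes, ITIM phosphatases, NKR-P1 receptors, other genes with a C-type lectin domain, and marks of IL-4 activation. The procedure was tested on simulated data. A planned search of protein sequences was not run.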

Additional observations from a re-analysis of the deposited data

How the results depend on the processing

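The number of upregulated members was 9 with FPKM as deposited. It was 7 with a filter at 5 FPKM, which Clec4b2 and Clec10a did not reach, 10 with limma voom on the recovered reads, where Clec4a3 joined at 1.02, and 13 with the adjusted p alone. With the Y-linked scaling it was 2, and the number downregulated, 0 with FPKM as deposited, was 1 (Ly75), as it also was with the adjusted p alone. That scaling turned the sign of Clec4a3 (-0.065, adjusted p = 0.447 by limma) and Clec2d (-0.21, adjusted p = 0.0939), neither of which then passed. It also turned Clec4e (-0.59, adjusted p = 1.61e-05) and Clec2i (-0.69, adjusted p = 8.78e-06). It lowers every fold change by construction, since the Y-linked genes were higher with cisplatin. Over 15 tested members and 17 alternatives, 252 comparisons could be made: 239 kept their direction and side of the threshold, 7 lost the call, 2 gained it and 4 reversed. A pseudocount of 0.1, no filter, TPM rescaling, quantile normalisation, eBayes without a trend, protein-coding genes only and, added after seeing the data, the total of recovered reads each gave 9 upregulated and 0 downregulated members. Median-of-ratios scaling was no alternative and is not counted, since its factors were equal in all libraries. Under quantile normalisation the all-gene median was 0.10. Without each library in turn the number upregulated was 9 at lowest and at highest, and the number downregulated 0.

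Deviations of same-numbered libraries from their group means correlated at -0.10, -0.086 and -0.024. With the replicate number as a block, 9 members were upregulated and 0 downregulated.

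The size of the change of low genes depended on the scale. For Mrc1 the log2 fold change was 2.82 with a pseudocount of 1, 3.78 with 0.1 and 4.03 on reads, and for Clec10a it was 1.09, 2.18 and 2.56. Depth limits the members with few reads, and the values of Clec2i and Clec2g rest on genes that overlap others on the opposite strand.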
